A study of Homo sapiens with 5 samples.

Results

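Aminoacyl-tRNA synthetases join each amino acid to its transfer RNA, so that the ribosome reads a codon as the right residue. Cells keep separate sets of these enzymes for translation in the cytosol and in mitochondria, and both sets are encoded in the nucleus. Several cytosolic enzymes assemble with scaffold proteins into the multisynthetase complex, and the genes of many cytosolic enzymes are known targets of ATF4, the transcription factor of the amino acid response, and of MYC. The genes were chosen by name alone, as symbols of an amino acid letter followed by ARS, with or without a final 1 or 2, together with EPRS, EARS2, FARSA, FARSB and FARS2. The rule found 37 of the 12468 genes listed in any deposited table. Of these, 20 encode cytosolic enzymes and 17, whose symbols end in 2, encode mitochondrial enzymes.

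The study asked what homodimer formation by USP28, a deubiquitinase of MYC, does to MYC turnover, DNA replication and DNA damage. Its transcription data came from HLF, a human hepatocellular carcinoma cell line. RNA-seq was made from 5 conditions without further treatment, in medium that contained added non-essential amino acids. USP28-Ctrl cells carried a control guide RNA (sgCtrl) and USP28-KO cells a guide against USP28 (sgUsp28). The other 3 conditions all had the sgUsp28 background and received a lentiviral pRRL vector that was empty (pRRL-Ctrl), carried wild-type USP28 (pRRL-Usp28-WT, USP28-WT) or carried a form that stays monomeric (pRRL-Usp28-Mono, USP28-M). The study picked knockout clones, so a single clone may stand for the genotype, and the transgenes put USP28 into cells whose own gene was targeted.

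The level used here is the average log2 CPM, the log2 of the counts scaled to equal library size (CPM), which the tables give once for all libraries of a statistical fit. One fit covered USP28-Ctrl with USP28-KO (the knockout fit) and the other covered the vector, USP28-WT and USP28-M cells (the reconstitution fit). Each condition has 1 sample in the labels, and how many libraries lie behind it is not given in the sources used here. The values therefore carry no replicate error, no value belongs to a single condition, and no test between conditions was made. Of the enzymes, 36 were among the 11102 genes of the knockout fit and all 37 were among the 12342 genes of the reconstitution fit. PARS2, the mitochondrial prolyl enzyme, was listed only in the latter.

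The reconstitution fit was the deeper one. The averages of the 1000 lowest genes fell on steps that correspond to about 7690000 reads over the knockout fit and about 30470000 over the reconstitution fit, and 97% and 71.6% of them lay within 0.1 of a whole read. At these depths the enzymes rested on an estimated 163 reads (FARS2) to 3229 reads (VARS) in the knockout fit, a counting error of at most 7.83%. In the reconstitution fit they rested on 210 reads (PARS2) to 15730 reads (AARS), a counting error of at most 6.89%. These errors cover counting only.

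USP28 itself averaged a log2 CPM of 5.15 in the knockout fit and 9.79 in the reconstitution fit, where 2 of 3 conditions carried a USP28 transgene. The averages cannot show USP28 in each condition and so do not check the single labels. Of 8 hepatocyte markers, only FGB was listed in the knockout fit and only FGB and SERPINA1 in the reconstitution fit, whereas ALB, APOA1, TTR, AFP, HNF4A and TF were listed in neither. All 4 mesenchymal markers were listed, with VIM at a log2 CPM of 11.7 in both fits. CDH2 was at 7.72 and 8.06, FN1 at 6.32 and 5.20, and ZEB1 at 4.31 and 3.49. The epithelial keratins were high as well, with KRT8 at 11.2 and 12.0 and KRT18 at 10.7 and 11.2. KRT19, EPCAM and CDH1 were not listed. None of 5 blood and endothelial markers was listed.

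Promoter sequences are shown because the cytosolic and the mitochondrial enzymes differed in how often these held a short element, and because 1 cytosolic and 1 mitochondrial enzyme start side by side. A RefSeq promoter window (GRCh38.p14, from 250 bases before to 50 bases after the gene start) was at hand for 30 of the 37 enzymes. AARS2, DARS, LARS, VARS, VARS2 and YARS were among the 7 that had none. The letters TGATGNAA, the core of the C/EBP-ATF response element that ATF4 is known to bind, were searched on both strands and occurred in 8 of the 30 windows. The 8 sites follow on the strand of the gene, with the element in capitals, as TGATGNAA or as its reverse complement.
AARS, chr16:70289675-70289704, minus strand: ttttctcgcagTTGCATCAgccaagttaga
CARS, chr11:3057407-3057436, minus strand: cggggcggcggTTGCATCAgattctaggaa
GARS, chr7:30594834-30594863, plus strand: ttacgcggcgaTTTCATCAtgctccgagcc
IARS, chr9:92293692-92293721, minus strand: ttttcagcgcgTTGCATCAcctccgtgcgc
MARS, chr12:57488053-57488082, plus strand: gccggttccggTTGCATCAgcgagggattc
NARS, chr18:57621804-57621833, minus strand: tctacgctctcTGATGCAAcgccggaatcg
TARS, chr5:33440956-33440985, plus strand: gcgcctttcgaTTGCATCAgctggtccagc
YARS2, chr12:32756076-32756105, minus strand: atccacactgcTGATGGAAaaattaagttt

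Of these 8 genes, 7 encode cytosolic enzymes and 1, YARS2, a mitochondrial one. The element was thus in 7 of 16 cytosolic windows (43.8%) and in 1 of 14 mitochondrial windows (7.14%), against 4.46% of the 27305 RefSeq windows and 2.58% of the 9756 windows of genes listed in either fit. Positions are counted from 0 at the gene start on which the window was built. In CARS, MARS, TARS, IARS and GARS the element began near the gene start, at -2, -4, 2, -13 and -33. In AARS and YARS2 it began farther upstream, at -187 and -197, and in NARS at 14. In NARS and TARS the element thus began within the transcript. Read on the strand that holds TGATGNAA, the 8 bases were TGATGCAA in AARS, CARS, IARS, MARS, NARS and TARS, TGATGAAA in GARS and TGATGGAA in YARS2. A match is a description of the sequence, not a binding site.

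The E-box CACGTG, the core motif of MYC, which is a palindrome, occurred in 4 of the 30 windows (13.3%), against 8.77% of all windows and 12.8% of those of genes listed in either fit. It was in 1 of 16 cytosolic windows, that of IARS, and in 3 of 14 mitochondrial windows. The 4 sites are shown as the counterpart of the C/EBP-ATF element, since MYC is the transcription factor of the study, with CACGTG in capitals.
IARS, chr9:92293867-92293894, minus strand: ggttcgttttcCACGTGgaggcgcaaaa
CARS2, chr13:110706502-110706529, minus strand: gctgggatgcaCACGTGcttcgctaaca
EARS2, chr16:23557349-23557376, minus strand: agggagaagccCACGTGtgctattccat
MARS2, chr2:197705347-197705374, plus strand: tgcgcctctcaCACGTGctgtcagaacg

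IARS, the cytosolic isoleucyl enzyme, was the one gene of the 30 that held both elements. In MARS2, CARS2 and EARS2 the E-box began just upstream of the gene start used for the window, at -11, -3 and -15, and in IARS at -186. For EARS2 the search for head-to-head genes below held another start, at 23557375. From that start the EARS2 E-box lies within the transcript, so its upstream place depends on the start used.

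To ask how the cytosolic and mitochondrial sets compare, the average CPM was divided by the length of the mRNA, since counts of different genes are comparable only per length. The cytosolic enzymes were the higher set in both fits. Their median was 60.9 CPM per kb in the knockout fit, from 25.7 (WARS) to 121 (KARS), and 57.5 CPM per kb in the reconstitution fit, from 25.7 (WARS) to 148 (AARS). The median of the mitochondrial enzymes was 16.3 CPM per kb in the knockout fit, from 6.62 (LARS2) to 54.0 (IARS2), and 14.7 CPM per kb in the reconstitution fit, from 2.94 (PARS2) to 48.4 (IARS2). The ratio of the medians was 3.74 and 3.90, and the cytosolic set made up 81.1% and 82.6% of the summed level of all enzymes.

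The cytosolic set lay high among all genes, whose median was 11.8 CPM per kb in the knockout fit and 8.93 in the reconstitution fit. All 20 cytosolic enzymes exceeded that median in both fits, and 7 and then 10 of them lay above percentile 90. Of the mitochondrial enzymes, 13 of 16 and 13 of 17 exceeded it, and none lay above percentile 90. The count of the mitochondrial set rested on the length used, at 6 of 16 in the knockout fit with the coding or the median transcript length, and at 8 and 10 of 17 in the reconstitution fit, whereas all 20 cytosolic enzymes stayed above. LARS2, MARS2 and NARS2, the mitochondrial leucyl, methionyl and asparaginyl enzymes, lay below the median of all genes in both fits, as did PARS2 in its only fit. The middle cytosolic enzyme stood at percentile 88.8 and 89.5 of all genes and the middle mitochondrial one at percentile 59.8 and 62.7.

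The sets overlapped little. In the knockout fit 12 cytosolic enzymes exceeded every mitochondrial one, and in the reconstitution fit 11 did. Of the mitochondrial enzymes, 2 lay above the lowest cytosolic one, and IARS2, the isoleucyl enzyme, was the higher of them in both fits. No mitochondrial enzyme reached the cytosolic median and no cytosolic enzyme fell to the mitochondrial median, in either fit.

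Among the cytosolic enzymes, KARS, the lysyl enzyme, had the top level in the knockout fit at 121 CPM per kb and was at 116 in the reconstitution fit. KARS and GARS, the glycyl enzyme, each serve both compartments from 1 gene, so part of their mRNA encodes a mitochondrial enzyme. GARS was at 78.8 CPM per kb in the knockout fit and 116 in the reconstitution fit. AARS, the alanyl enzyme, was second in the knockout fit at 98.7 CPM per kb and first in the reconstitution fit at 148. VARS, the valyl enzyme, was at 97.3 and 109 CPM per kb. MARS, which charges both the initiator and the elongator methionine tRNA, was at 84.7 and 114 CPM per kb.

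The low end of the cytosolic set was WARS, the tryptophanyl enzyme, known for its induction by interferon, at 25.7 CPM per kb in both fits. CARS, the cysteinyl enzyme, was next lowest in the knockout fit at 29.9 CPM per kb, and was at 47.2 in the reconstitution fit. HARS, the histidyl enzyme, was at 35.5 and 28.3 CPM per kb. TARS, the threonyl enzyme, was at 35.8 and 32.8 CPM per kb. These low cytosolic levels still lay above the mitochondrial median in each fit. The phenylalanyl enzyme is a tetramer of equal numbers of the subunits FARSA and FARSB, and their mRNA levels were 61.4 and 42.2 CPM per kb in the knockout fit and 54.3 and 31.7 in the reconstitution fit.

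The multisynthetase complex did not stand apart from the other cytosolic enzymes. Its 8 synthetases (DARS, EPRS, IARS, KARS, LARS, MARS, QARS and RARS) had a median of 59.9 CPM per kb in the knockout fit and 61.4 in the reconstitution fit, against 62.7 and 50.6 for the 12 other cytosolic enzymes. The sign of this difference depended on the length that the CPM was divided by. Within the complex the levels ran from LARS at 38.0 to KARS at 121 CPM per kb in the knockout fit, and from DARS to KARS at 116 in the reconstitution fit. All 3 scaffold proteins of the complex were below the median of its synthetases in both fits. AIMP1 was at 20.7 and 10.1 CPM per kb, AIMP2 at 30.9 and 34.0, and EEF1E1 at 54.3 and 41.4. AIMP1 thus lay below each of the 8 synthetases in both fits.

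The synthetases fall into classes I and II by the fold of the catalytic domain, which are unrelated in structure. The 9 cytosolic class I enzymes had a median of 59.4 CPM per kb in the knockout fit and 62.0 in the reconstitution fit. The 10 class II enzymes, FARSA and FARSB included, had medians of 62.7 and 49.0. EPRS, which joins a class I glutamyl and a class II prolyl enzyme in 1 chain, was counted in neither and was at 60.4 and 41.0 CPM per kb.

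Setting each cytosolic enzyme beside the mitochondrial enzyme for the same amino acid gave 16 pairs in the knockout fit and 17 in the reconstitution fit that are reported here. The cytosolic enzyme was higher in 15 of 16 and in 17 of 17 pairs, and the median ratio was 4.27 and 3.85. The exception in the knockout fit was IARS2. The pair with the widest gap in both fits was MARS and MARS2. MARS exceeded MARS2 in the knockout fit, at 84.7 against 7.06 CPM per kb, and 24.7-fold in the reconstitution fit, at 114 against 4.62 CPM per kb. AARS exceeded AARS2 6.54-fold and 10.9-fold. EPRS exceeded PARS2, which charges only proline, 13.9-fold in the reconstitution fit.

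The isoleucyl pair was the most even of those pairs in both fits. IARS was at 51.6 and IARS2 at 54.0 CPM per kb in the knockout fit, a ratio of 0.955. In the reconstitution fit IARS was at 60.9 and IARS2 at 48.4 CPM per kb, a ratio of 1.26. The cytosolic enzyme was thus the lower of the pair in 1 fit and the higher in the other.

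The histidyl pair differs from the others in its place in the genome. HARS and HARS2 lie head to head on chromosome 5, with the HARS start at 140691370 on the minus strand and the HARS2 start at 140691455 on the plus strand. The 84 bases between the starts, which both genes share as promoter sequence, read as follows on the plus strand of GRCh38.p14.
HARS to HARS2, chr5:140691371-140691454: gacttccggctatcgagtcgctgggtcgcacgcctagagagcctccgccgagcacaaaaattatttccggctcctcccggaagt

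With this shared region, HARS exceeded HARS2 1.95-fold in the knockout fit, at 35.5 against 18.1 CPM per kb, and 1.67-fold in the reconstitution fit, at 28.3 against 17.0. Of the reported pairs, the isoleucyl and cysteinyl ones were closer in the knockout fit (0.955 and 1.74) and the isoleucyl one in the reconstitution fit (1.26). In all, 10 of the 30 enzymes with a RefSeq window (33.3%) started within 500 bases of a gene on the other strand, against 28.2% of the genes listed in either fit. For TARS and EARS2 the starts in this count were not those of their promoter windows. SARS2, the mitochondrial seryl enzyme, starts 181 bases from MRPS12, a protein of the mitochondrial ribosome. SARS2 was at 24.3 and 21.9 CPM per kb and MRPS12 at 49.1 and 43.8 CPM per kb. KARS starts 108 bases from TERF2IP, a telomere protein, which was at 24.0 and 21.0 CPM per kb against 121 and 116 for KARS. Levels on either side of such a region were thus unequal in these pairs.

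Mitochondria make glutaminyl-tRNA without an enzyme of their own, by amidating tRNA that carries glutamate. The amidotransferase subunits GATB, GATC and QRSL1 were at 13.1, 14.5 and 9.53 CPM per kb in the knockout fit and 17.5, 14.9 and 8.67 in the reconstitution fit. EARS2, which supplies the glutamyl-tRNA, was at 13.6 and 19.6 CPM per kb. QARS, the cytosolic glutaminyl enzyme, was at 59.4 and 62.0 CPM per kb, in the range of the other cytosolic enzymes. MTFMT, which formylates the methionyl-tRNA that MARS2 makes, was at 6.05 and 4.86 CPM per kb, close to MARS2 at 7.06 and 4.62.

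The list of other genes that handle tRNA, with the 3 scaffold proteins of the multisynthetase complex included, held 20 genes. Their median was lower than that of the synthetases. Of these, 19 were listed in the knockout fit, with a median of 9.53 CPM per kb, and 20 in the reconstitution fit, with a median of 8.35, against 35.6 and 31.2 for the synthetases. XPOT, the exportin that carries tRNA out of the nucleus, stood at percentiles 78.0 and 77.7 of all genes. TARSL2, a close relative of TARS that the naming rule leaves out, was at 2.38 and 1.81 CPM per kb, far below TARS. EEF1E1 was above the median of the synthetases in both fits, as were AARSD1, which holds an alanyl editing domain, in the knockout fit (37.1 CPM per kb) and AIMP2 in the reconstitution fit.

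The order of the enzymes was much the same in both fits. Across the 36 enzymes listed in both, the rank correlation of the levels in CPM per kb was 0.953 (Spearman; Pearson 0.951 on the log2 scale), and across all 10976 genes it was 0.947. Within the 20 cytosolic enzymes it was 0.848 and within the 16 mitochondrial enzymes 0.850. These are correlations across genes of 2 averages, and genes are not independent replicates.

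The fits were normalized separately and differ in depth, in USP28 genotype and in the vector, so a level set across them cannot be told apart from any of these. The median log2 difference of all genes, reconstitution minus knockout fit, was -0.12, and the differences below are given relative to this median of all genes. The enzymes had a median of 0.06, with 22 of 36 above the median of all genes, and all 36 lay within the central 95% of genes, from -1.42 to 0.99. The cytosolic median was 0.10 (12 of 20 above) and the mitochondrial median 0.02 (10 of 16 above). The cytosolic enzymes ranged from -0.73 to 0.81 and the mitochondrial enzymes from -0.49 to 0.65, on both sides of the typical gene. Markers of cell type differed between the fits too. KRT8 at 0.96, FN1 at -1.002 and FGB at -2.68 lay outside the range of the enzymes. KRT18 at 0.67, CDH2 at 0.47, VIM at 0.10 and ZEB1 at -0.70 lay within it. The part of these markers in the levels of the enzymes was not tested.

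The enzymes that stood highest in the reconstitution fit relative to the knockout fit were YARS at 0.81, CARS at 0.78, AARS at 0.71, SARS at 0.68, GARS at 0.68, EARS2 at 0.65 and MARS at 0.55 on the log2 scale. All but EARS2 are cytosolic. The lowest were DARS at -0.73, NARS at -0.51, MARS2 at -0.49, EPRS at -0.44, VARS2 at -0.38 and RARS at -0.34. The synthetases of the multisynthetase complex lay at both ends, with DARS, EPRS and RARS low, MARS and IARS (0.36) high, 5 of 8 above the typical gene and a median of 0.07. With the trend described next removed, 3 of 8 were above it and the median was -0.09. Of the scaffold proteins, AIMP1 was at -0.91, EEF1E1 at -0.27 and AIMP2 at 0.26.

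The difference between the fits ran with base composition. Its rank correlation with the GC content of the mRNA was 0.482 across 10684 genes and 0.351 across the 36 enzymes. With the trend in GC content, length and level removed, the cytosolic median moved to -0.07 and the mitochondrial median to 0.01, so that the order of the sets turned. The ranges turned too, the mitochondrial one, from -0.70 to 0.63, now being wider than the cytosolic one, from -0.58 to 0.50. HARS2, KARS, QARS, VARS, WARS and YARS2 moved to the other side of the typical gene. YARS at 0.50, CARS at 0.49, GARS at 0.48, SARS at 0.43 and AARS at 0.41 stayed above it, and NARS at -0.58, EPRS at -0.53 and DARS at -0.43 stayed below it. RARS2, the mitochondrial arginyl enzyme, was the highest of all after this step, at 0.63, and VARS2 the lowest, at -0.70.

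Of the 7 cytosolic enzymes with the C/EBP-ATF letters shown above, CARS, AARS, GARS, MARS and IARS stood above the typical gene, TARS was level with it at -0.00411 and NARS lay below it. Their median was 0.55, against -0.06 for the 9 cytosolic enzymes whose window lacked the letters, of which 4 stood above the typical gene. With the trend removed the medians were 0.28 and -0.10. Across all genes the element did not go with such a difference, at a median of -0.02 for 221 genes with it and 0.01 for 8607 genes without it. The E-box went with a small difference across all genes, at a median of 0.11 for 1151 genes with it (669 above the typical gene) and -0.00113 for 7677 genes without it. The 4 enzymes with the E-box had a median of 0.29 (3 above) against 0.02 for the 25 without it (15 above), and 0.19 and -0.07 with the trend removed. SARS stood high without the C/EBP-ATF letters in its window, and YARS had no window to search.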

How the data were processed

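The authors sequenced libraries from total RNA of HLF cells (NEBNext kit) and, per the submitters' processing notes, used bcl2fastq 2.20, STAR 2.5.4, edgeR 3.26.8 and the build hg19. The deposited values are log2 averages: the authors' average log2 CPM per gene over all libraries of an edgeR fit. The 3 tables hold 2 fits, since both reconstitution tables carry the same averages for 12342 genes. They also hold the authors' log2 fold changes, F statistics, p-values and adjusted p-values, which were not used, so that no comparison between conditions is reported. In the knockout table the column names stand 1 field left of their values.

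Levels were converted to CPM and divided by the longest GENCODE 29 protein-coding mRNA of the gene (GRCh38, used for length and GC content only), which was found for 97.1% and 95.9% of genes. Medians, counts and rank correlations were computed in Python 3.11.15 with pandas 2.3.3 and scipy 1.17.1. Promoters came from RefSeq (GRCh38.p14). To remove the trend, genes were cut into 20 quantile bins of GC content, of length and of level. The median of each bin was subtracted for each property in turn, in repeated rounds, and the steps were tested on simulated data. All enzymes found by the naming rule enter the counts and medians of the sets, 1 of them is not reported here by name, in a pair or in a figure, and other genes come from fixed lists. The members and lists were chosen with earlier results of these data known. The motifs, head-to-head starts, structural classes, levels set across the fits and the amino acid response list were added after the values were seen.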

Additional observations from a re-analysis of the deposited data

How the results depend on the processing

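Levels are averages over libraries, so replicate error and per-condition values cannot be given, and leaving out a library was not possible. No paired analysis was possible because the tables hold no column per sample and no test was made. The log2 ratio of the cytosolic to the mitochondrial median stayed positive under every alternative run. In the knockout fit it moved from 1.90 to 2.20 without division by length and to 2.78 with the median transcript length. In the reconstitution fit it moved from 1.97 to 1.73 with the coding length, 2.56 with the median transcript length, 2.08 as the mean of log2 values, 1.78 without GARS and KARS, and 1.86 at a log2 CPM of at least 3. The sign of the multisynthetase complex against the other cytosolic enzymes did not hold. In the knockout fit the log2 ratio was -0.07, but 0.53 without division by length, 0.63 with the median transcript length and 0.29 as the mean. In the reconstitution fit it was 0.28, but 0.45 without division by length, 0.0068 as the mean, -0.058 with the coding length and -0.37 with the median transcript length. The cytosolic minus mitochondrial difference between the fits turned from 0.080 to -0.085 on the log2 scale with the trend removed, an alternative chosen after seeing the data. The counts of enzymes above the median of all genes fell from 33 to 26 in the knockout fit with either other length, and from 33 to 28 (coding length) and 30 (median transcript length) in the reconstitution fit. The cytosolic enzyme was the higher in 15 or 16 of 16 pairs in the knockout fit and in 16 or 17 of 17 in the reconstitution fit, whichever length was used.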

Other observations

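A list of 21 genes known from the amino acid response, added after the values were seen, was set beside the synthetases. Of these, 19 were listed in both fits, and 17 of the 19 stood above the typical gene in the reconstitution fit relative to the knockout fit, with a median of 0.46 on the log2 scale, relative to the median of all genes. DDIT4, an inhibitor of mTORC1, was at 1.67, TRIB3, a pseudokinase, at 1.38, and ASNS, asparagine synthetase, at 0.92. ATF4 itself was at 0.56, and MYC, which is not on the list, was at 0.64. PSAT1, of serine synthesis, and SLC7A11, the cystine transporter, were at -0.07 and -0.06. With the trend in GC content, length and level removed, 17 of 19 again stood above the typical gene, with a median of 0.31. ATF4 was then at 0.32 and MYC at 0.39. The fits differ in depth, genotype and vector, which cannot be told apart here, and the list was not tested.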
